A study of Mus musculus with 6 samples.

Results

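Krt7, Krt8, Krt18 and Krt19, the keratins of simple epithelia, were followed as 4 genes chosen by name, among 24077 genes counted in single cells and 30828 counted in tissue spots. The remaining keratin genes numbered 46 in the single-cell counts and 50 in the spot counts. Uteri of female CD-1 mice were taken at 12 months of age. As newborns, on days 1 to 5, the mice had been injected under the skin with the synthetic oestrogen diethylstilbestrol (DES, 1 mg/kg/day) or with its vehicle, corn oil (CO). Dissociated cells gave 1 CO library pooled from 2 mice and 1 DES library pooled from 4 mice. Visium spots, which lie on a grid under a tissue section and can each cover several cells, gave 2 CO and 2 DES sections (A and B in each group, from 1 mouse each), cut from blocks that a pathologist had examined for luminal and glandular epithelium and, in DES mice, for uterine adenocarcinoma, and cored to areas of interest.

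Keratins are the intermediate filament proteins of epithelial cells. A filament is built from pairs of 1 type II and 1 type I chain, so that neither type makes a filament alone. Krt7 and Krt8 are type II keratins and Krt18 and Krt19 are type I, with Krt8 and Krt18 the pair that appears first in the embryo and Krt7 and Krt19 added in ducts, glands and lining epithelia. All 4 are standard markers of the single-layered epithelium of the uterine lumen and glands, and they are also made by mesothelium, the flat layer that covers the organ. Stratified epithelia and their basal cells use other pairs, foremost Krt5 with Krt14.

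In the mm10 assembly 3 of the 4 genes lie in the type II keratin cluster of chromosome 15, which holds 26 protein-coding keratin genes. Krt7 (ENSMUSG00000023039.17) spans chr15:101411043-101430313 on the plus strand with 9 exons, Krt8 (ENSMUSG00000049382.10) chr15:101996698-102004482 on the minus strand with 9 exons, and Krt18 (ENSMUSG00000023043.7) chr15:102028180-102032027 on the plus strand with 7 exons. Krt18 is the type I gene that sits at the edge of this type II cluster, 23697 bases from Krt8, facing away from it, with 0 annotated genes between them. Krt19 (ENSMUSG00000020911.14) spans chr11:100140810-100148665 on the minus strand with 6 exons, among the 27 protein-coding keratin genes of the type I cluster. The annotation places Gm671 over the first exons of Krt7 and Gm36026 over the start of Krt8, both on the opposite strand, and neither was analysed here. The sequences before the RefSeq starts of 3 of the genes are shown because the neighbours Krt8 and Krt18 moved apart in the counts described further on. They come from the RefSeq promoter table for GRCm38.p6, end where the annotated 5′ untranslated region begins, and are written 5′ to 3′ on the gene's strand, with GC boxes in capitals. The stretches are chr15:101412153-101412401 (plus) for Krt7, chr15:102004483-102004592 (minus) for Krt8 and chr15:102027966-102028179 (plus) for Krt18. The RefSeq start of Krt7 lies inside the span of the GENCODE gene given here, downstream of its first annotated base.
Krt7: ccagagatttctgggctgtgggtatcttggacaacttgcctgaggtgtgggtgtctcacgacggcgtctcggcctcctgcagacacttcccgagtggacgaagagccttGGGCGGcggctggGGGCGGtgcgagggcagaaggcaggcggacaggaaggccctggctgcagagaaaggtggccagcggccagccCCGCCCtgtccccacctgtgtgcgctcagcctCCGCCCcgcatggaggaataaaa
Krt8: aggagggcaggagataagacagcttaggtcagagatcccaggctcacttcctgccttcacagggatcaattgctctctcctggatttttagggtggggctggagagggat
Krt18: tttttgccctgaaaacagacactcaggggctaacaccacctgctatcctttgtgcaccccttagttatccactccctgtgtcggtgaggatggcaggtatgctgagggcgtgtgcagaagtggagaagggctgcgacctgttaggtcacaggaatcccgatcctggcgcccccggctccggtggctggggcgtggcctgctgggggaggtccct

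Within 250 bases before the RefSeq starts, G and C made up 66% of the letters for Krt7, 58% for Krt8 and 60.4% for Krt18. The window of Krt7 held 4 GC boxes (GGGCGG or, on the other strand, CCGCCC), a motif present in 32.7% of 32851 promoter windows of the same length. Their first bases lay 141 and 128 bases before the start on the gene's strand and 56 and 24 bases before it on the other strand. None of the 4 overlapped another motif searched. The Krt8 and Krt18 windows held none of the 6 motifs searched on both strands, which were the TATA box TATAAA (in 12.4% of all windows), the GC box, the CCAAT box CCAAT (33.8%), the AP-1 site TGANTCA (6.75%), the grainyhead site AACCNGTT (1.79%) and the full oestrogen response element (0.0639%). A match or its absence describes these letters only.

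Unique molecular identifiers (UMIs), each standing for 1 captured transcript, had a median of 6779 per cell over the 32387 CO cells and of 10153.5 per cell over the 16312 DES cells. The sections held 1357 to 1834 spots and 9117099 to 12506177 UMIs. Levels are given as CPM, the UMIs of a gene scaled to a total of 1000000 UMIs in the same cells or spots, with exact Poisson 95% intervals that cover counting error only. The libraries count 3′ ends, so a level does not scale with transcript length. Other differences in capture between genes were not checked, so orders and balances among the 4 genes are those of counted UMIs. With 1 library in each group, CO and DES cells were compared as values and not tested, and pooled mice cannot be told apart. The libraries shared 180 cell barcodes, 32 of them among cells that carried a cell type. The study sorted out its epithelial cells partly by Krt18 and clustered cells on the same counts, so levels by cell type and cluster are descriptions.

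In control uteri, among cell types with at least 50 cells, all 4 keratins were highest in epithelial cells and second in mesothelial cells. In a smaller type, the 22 cells that the study named Stmn1-hi, Krt8 was at 574 CPM (interval 504 to 651) and Krt19 at 609 CPM. In the 2583 CO epithelial cells Krt8 reached 1549 CPM (interval 1540 to 1557), Krt19 1229 CPM (1221 to 1237), Krt7 996 CPM (989 to 1003) and Krt18 686 CPM (680 to 691). These cells carried the non-keratin epithelial genes as their label says, with Epcam, a cell adhesion protein, at 1040 CPM and 70.9 CPM in stromal cells. In the 6866 CO mesothelial cells, marked by Upk3b at 1005 CPM, the order was different. Krt19 stood at 1057 CPM there, Krt8 at 539 CPM, Krt7 at 519 CPM and Krt18 at 321 CPM. Krt19 was thus the keratin closest between the 2 cell types, at 0.860 times its epithelial level (interval 0.852 to 0.868), and Krt8 the most distant, at 0.348 times (0.344 to 0.352).

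The other 7 CO cell types with at least 50 cells held the keratins at lower levels whose intervals mostly overlapped from one cell type to the next. Krt8 ran from 188 CPM in stromal cells to 352 CPM in pericytes, and Krt18 from 77.2 CPM in stromal cells to 156 CPM in pericytes. Krt7 ran from 105 CPM in stromal cells to 204 CPM in myeloid cells, and Krt19 from 182 CPM in stromal cells to 414 CPM in pericytes. Stromal cells were the lowest for each of the 4. CO epithelial cells stood above CO stromal cells by 9.45 times for Krt7, 8.24 times for Krt8, 8.88 times for Krt18 and 6.75 times for Krt19. The mix in these stromal cells lay near that of the epithelium of the same library. Krt7 gave 19.1% of the UMIs of the 4 in stromal and 22.3% in epithelial cells, Krt8 34.0% and 34.7%, and Krt19 32.9% and 27.6%. The part of free RNA in the levels of these other cell types was not tested.

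**Figure D1:**
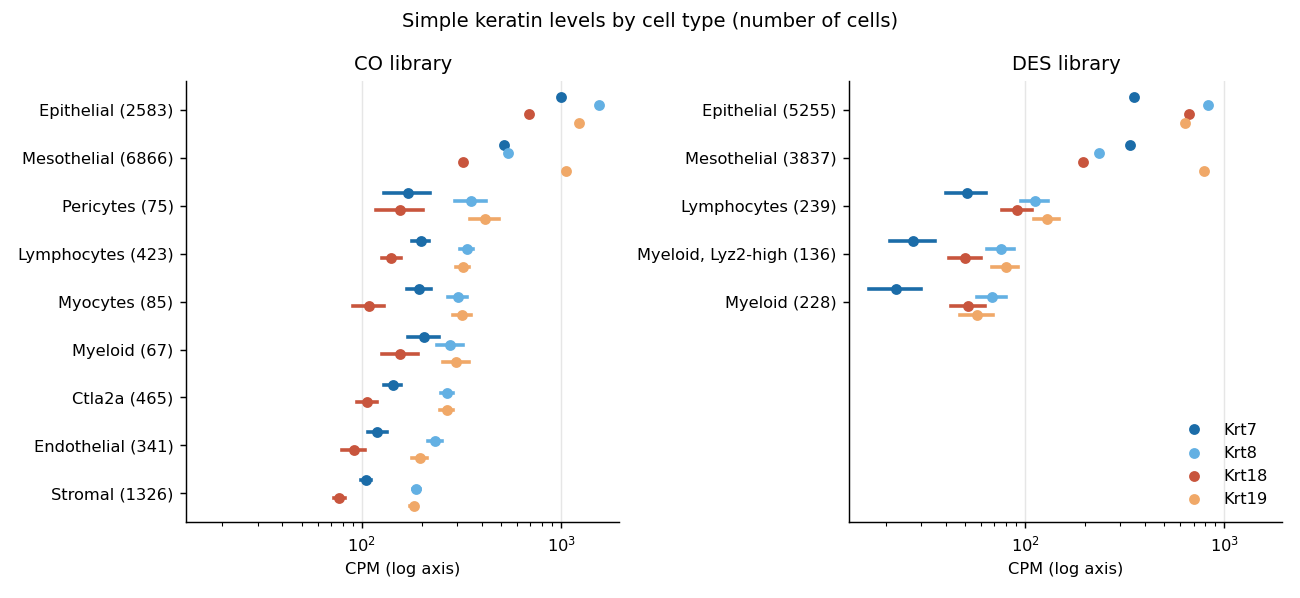
Level of each keratin in CPM (log axis) by cell type in the CO library (left) and the DES library (right), with cell numbers in brackets, points for the level and bars for the exact Poisson 95% interval. Only cell types with at least 50 cells are drawn. Of these, epithelial and mesothelial cells lie to the right of all others, and Krt19 in DES mesothelial cells (793 CPM) lies to the right of Krt19 in DES epithelial cells (635 CPM).

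In the DES library the epithelial cells held less Krt7, Krt8 and Krt19 than those of the CO library and about as much Krt18. The study chose these cells partly by Krt18 in both libraries, and the part of that choice in the Krt18 level was not tested. In 5255 DES epithelial cells Krt8 was at 832 CPM (828 to 836), Krt18 at 666 CPM (662 to 669), Krt19 at 635 CPM (631 to 639) and Krt7 at 354 CPM (351 to 357). The ratio of DES to CO was 0.355 for Krt7 (interval 0.352 to 0.359), 0.517 for Krt19 (0.512 to 0.521), 0.537 for Krt8 (0.533 to 0.541) and 0.971 for Krt18 (0.961 to 0.981). At least 1.5 times lower were 3 of the 4, where 20.1% of the 3105 genes with 50 CPM or more in either epithelium were that much lower. In cells picked by a UMI each of Epcam and Cdh1, in place of the label, the Krt18 ratio was 1.11. That set was made up differently in the libraries, with 2466 of 7318 CO cells and 4772 of 6020 DES cells labelled epithelial, and the part of this in the ratio was not tested. The order of the 4 genes changed with this, since Krt18 was the lowest in CO epithelium and the second in DES epithelium. The level of all 4 summed was 4459 CPM in CO and 2487 CPM in DES epithelial cells. These values come from 1 library per group, and the sections described further on differ from them. In epithelium-rich spots the log2 difference was -0.19 for Krt7 (95% interval -1.11 to 0.73). It was -0.38 for Krt8, -0.31 for Krt18 and -0.12 for Krt19, and none was called. Such spots also hold basal and other cells.

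Mesothelial cells of the DES library were lower in all 4 keratins, Krt18 included. The 3837 cells held Krt19 at 793 CPM, Krt7 at 338 CPM, Krt8 at 235 CPM and Krt18 at 195 CPM. Against CO mesothelial cells the ratios were 0.750 for Krt19, 0.651 for Krt7, 0.607 for Krt18 and 0.436 for Krt8. Krt7, Krt8 and Krt18 were at least 1.5 times lower, as were 6.02% of 3224 genes. Less the level in CO stromal and DES myeloid cells, the Krt7 ratio was 0.762, no longer that much lower, with Krt8 at 0.475 and Krt18 at 0.586. These ratios depend on the cells taken off, which are of a different type in each library. The 67 CO myeloid cells held 204, 278, 156 and 297 CPM in the order Krt7, Krt8, Krt18, Krt19, well above the DES myeloid levels given below. A ratio less the same cell type in both libraries was not tested. Krt19 was the one keratin higher in mesothelial than in epithelial cells of the DES library, by 1.25 times (interval 1.24 to 1.26), while Krt7 was near equal, at 0.955 times (0.940 to 0.970). In cells picked by Upk3b and Msln, of which 6468 of 11728 CO cells and 3705 of 5133 DES cells were labelled mesothelial, the Krt18 ratio was 0.906. DES myeloid cells, the lowest in Krt7, Krt8 and Krt19 among DES cell types with at least 50 cells, held the 4 at 22.6, 68.2, 52.0 and 57.4 CPM in the order Krt7, Krt8, Krt18, Krt19, and DES lymphocytes at 51.0, 112, 91.3 and 128 CPM. In those myeloid cells the mix was 11.3%, 34.1%, 26.0% and 28.7%, beside 14.2%, 33.5%, 26.8% and 25.5% in DES epithelial cells.

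Because filaments need both types, the balance of type II to type I UMIs was followed. It was 1.33 in CO epithelial cells (interval 1.32 to 1.34) and 0.912 in DES epithelial cells (0.906 to 0.917), so that type II UMIs outnumbered type I UMIs in the first and not in the second. In mesothelial cells type I led in both libraries, with 0.768 in CO and 0.580 in DES. The DES value rested on which genes were counted: Krt8 over Krt18 alone was 2.26 in CO and 1.25 in DES epithelium, above 1 in both. With most of the 50 keratin genes counted, 23 of type II and 22 of type I, the balance was 1.34 in CO and 0.779 in DES epithelial cells.

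Cells were also read one by one, after each was thinned to 3000 UMIs so that depth was equal. A UMI of Krt8 was then found in 94.5% of 2562 CO and 86.9% of 5201 DES epithelial cells, and of Krt18 in 84.3% and 83.8%. Krt19 was found in 89.4% and 78.5%, and Krt7 in 86.8% and 64.0%. Before thinning, with medians of 23458 and 21900 UMIs per cell, each of these shares was 94.8% or more. As a floor, CO stromal cells had a UMI of Krt7 in 27.2%, Krt8 in 44.8%, Krt18 in 20.4% and Krt19 in 42.7% of thinned cells, and DES myeloid cells in 6.88%, 17.9%, 14.2% and 18.3%. All 4 keratins met in the same thinned cell in 64.8% of CO and 39.8% of DES epithelial cells, in 33.8% of CO and 12.6% of DES mesothelial cells, and in 1.38% of CO stromal and 0.459% of DES myeloid cells.

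Between the summed luminal and the summed glandular cells of the control epithelium Krt18 ran opposite to the other 3. The study split its CO epithelial cells into 15 clusters, 10 named luminal, 4 named glandular and cluster 12, a small cluster that it read as stem cells. Of the glandular markers, Sult1d1 was at 618 to 869.5 CPM and Gpx3 at 640.2 to 1147 CPM in the 4 glandular clusters, above the 17.8 to 82.9 CPM and 10.4 to 52.3 CPM of the 10 luminal clusters. Others marked only some of the 4, such as Prss29, a protease of uterine glands, at 51277 CPM in cluster 13 and 6.61 to 79.99 CPM in the other 3. The 2095 luminal cells held Krt8 at 1670 CPM, Krt19 at 1363 CPM, Krt7 at 1093 CPM and Krt18 at 641 CPM. The 417 glandular cells held Krt18 at 1029 CPM, Krt8 at 700 CPM, Krt7 at 384 CPM and Krt19 at 305 CPM. Luminal over glandular, Krt19 was 4.47 times higher (interval 4.30 to 4.64), Krt7 2.84 times (2.75 to 2.95) and Krt8 2.38 times (2.32 to 2.45), while Krt18 was at 0.623 times (0.609 to 0.638). Of 3164 genes, 27.1% were at least 1.5 times higher in luminal cells, as were 3 of the 4 keratins, and 16.4% at least 1.5 times lower, as was Krt18.

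The switch showed in the balance and in single cells. Krt8 over Krt18 was 2.60 in luminal and 0.680 in glandular clusters, and type II over type I was 1.38 and 0.813. Thinned cells with more Krt18 than Krt19 UMIs made up 15.8% of luminal cells (interval 14.3% to 17.4%) and 80.2% of glandular cells (76.1% to 84.0%). Per cell, before thinning, Krt19 ran from 565 CPM at the 5th to 2690 CPM at the 95th percentile of luminal cells, with a median of 1343 CPM. In glandular cells the median was 235 CPM and the 95th percentile 817 CPM. The 4 keratins met in 73.8% of thinned luminal and 26.0% of thinned glandular cells.

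Single clusters spread around these levels. Krt19 was lowest in glandular cluster 13, at 181 CPM, and highest in luminal cluster 0, at 1522 CPM, which is 8.42 times more. Krt18 had its highest level in that same cluster 13, at 1295 CPM, and its lowest in luminal cluster 9, at 513 CPM, a span of 2.52 times. For Krt18 the groups overlapped, with luminal cluster 5 at 857 CPM (interval 834 to 879) above glandular clusters 14 (771 CPM) and 8 (808 CPM). For the other 3 they did not: the lowest luminal and the highest glandular cluster were at 748 and 518 CPM for Krt7, 1390.4 and 809 CPM for Krt8, and 994 and 344 CPM for Krt19. Krt7 spanned 179 CPM (glandular cluster 14) to 1312 CPM (luminal cluster 5) and Krt8 470 CPM (glandular cluster 8) to 2133 CPM (luminal cluster 5). Over the 15 clusters, which share 1 library, Pearson's r of log2 CPM was 0.912 between Krt8 and Krt19, 0.868 between Krt7 and Krt19 and 0.774 between Krt7 and Krt8. It was -0.768 between Krt18 and Krt19, -0.557 between Krt18 and Krt7 and -0.536 between Krt18 and Krt8. These are descriptions of 15 points that fall into the named groups. Over the 10 luminal clusters alone, r was 0.829 between Krt18 and Krt8, -0.136 between Krt18 and Krt7 and -0.109 between Krt18 and Krt19. Cluster 5 was the highest of these 10 in Krt7, Krt8 and Krt18 (857 CPM). Cluster 12, with 71 cells, held Krt8 at 1053 CPM, Krt18 at 698 CPM, Krt19 at 595 CPM and Krt7 at 262 CPM, so that Krt18 stood at 1.09 times its luminal level (interval 1.03 to 1.15) and Krt7 at 0.240 times (0.218 to 0.263).

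**Figure D2:**
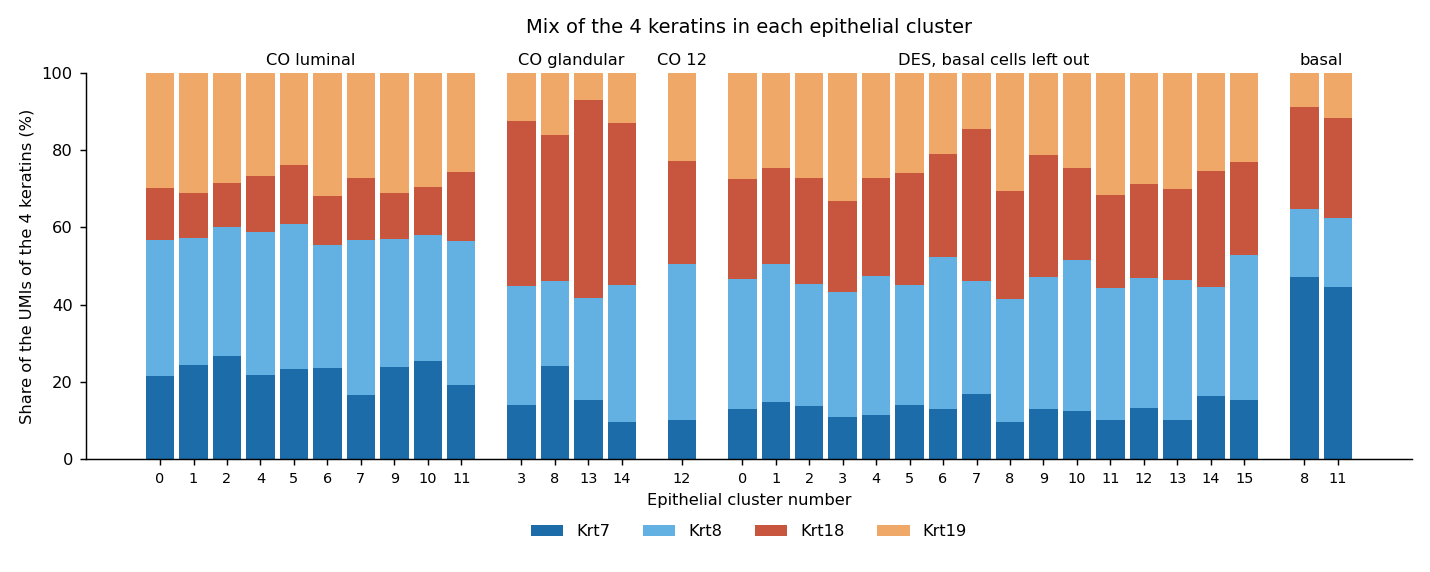
Share of the UMIs of the 4 keratins held by each (per cent, stacked to 100) in every epithelial cluster, the CO luminal, CO glandular, CO 12 and DES clusters and the study's integrated clusters 8 and 11, which hold DES basal cells. Krt18 takes 13.5% in CO luminal clusters together, 42.5% in CO glandular clusters and 26.7% in DES clusters.

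As a whole, DES epithelial clusters had neither the luminal nor the glandular mix. With basal cells left out, the 4608 DES cells in 16 clusters held Krt8 at 867 CPM, Krt18 at 679 CPM, Krt19 at 662 CPM and Krt7 at 330 CPM. Set against CO luminal cells, Krt18 was at 1.06 times (interval 1.05 to 1.07), Krt8 at 0.519, Krt19 at 0.486 and Krt7 at 0.302 times. Set against CO glandular cells, Krt19 was at 2.17 times, Krt8 at 1.24, Krt7 at 0.859 and Krt18 at 0.660 times. Within 1.5 times of the luminal level was Krt18 alone, and within 1.5 times of the glandular level were Krt7 and Krt8. By these 4 genes alone, CO cluster 12, of 71 cells, was nearer than either. Krt8 was at 1053 CPM there, Krt18 at 698 CPM, Krt19 at 595 CPM and Krt7 at 262 CPM. Each lay within 1.5 times of its DES level. Krt8 gave 40.4% of the UMIs of the 4 in cluster 12 and 34.1% in DES clusters, Krt18 26.8% and 26.7%, and Krt19 22.8% and 26.1%. Krt7 gave the rest, a smaller share in cluster 12 than in DES clusters. With 1 library per group this likeness has no test. The share of all genes within 1.5 times was not counted for the luminal, the glandular or the cluster 12 comparison. Whether the likeness reaches beyond the 4 keratins was thus not tested. Krt18 exceeded Krt19 in 37.6% of thinned DES cells, between the luminal and the glandular share.

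From the lowest to the highest cluster the levels spanned 2.07 times for Krt7, 1.99 times for Krt8, 2.10 times for Krt18 and 3.81 times for Krt19, over the 16 DES clusters, against 7.35, 4.54, 2.52 and 8.42 times over all 15 CO clusters. Within the 10 CO luminal clusters alone the spans were 1.75, 1.53, 1.67 and 1.53 times, below those of DES for each keratin. Cluster 5 was the highest for Krt7 (491 CPM), Krt8 (1074 CPM) and Krt18 (1011 CPM), and cluster 3 for Krt19 (1023 CPM). Over these clusters, which hold no such named groups, Krt18 had r of 0.782 with Krt7, 0.336 with Krt19 and 0.315 with Krt8 over 16 points. Cluster 7 came nearest to the glandular mix, with Krt18 at 728 CPM and Krt19 at 268 CPM, its lowest level, and 64.2% of its thinned cells held more Krt18 than Krt19.

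**Figure D3:**
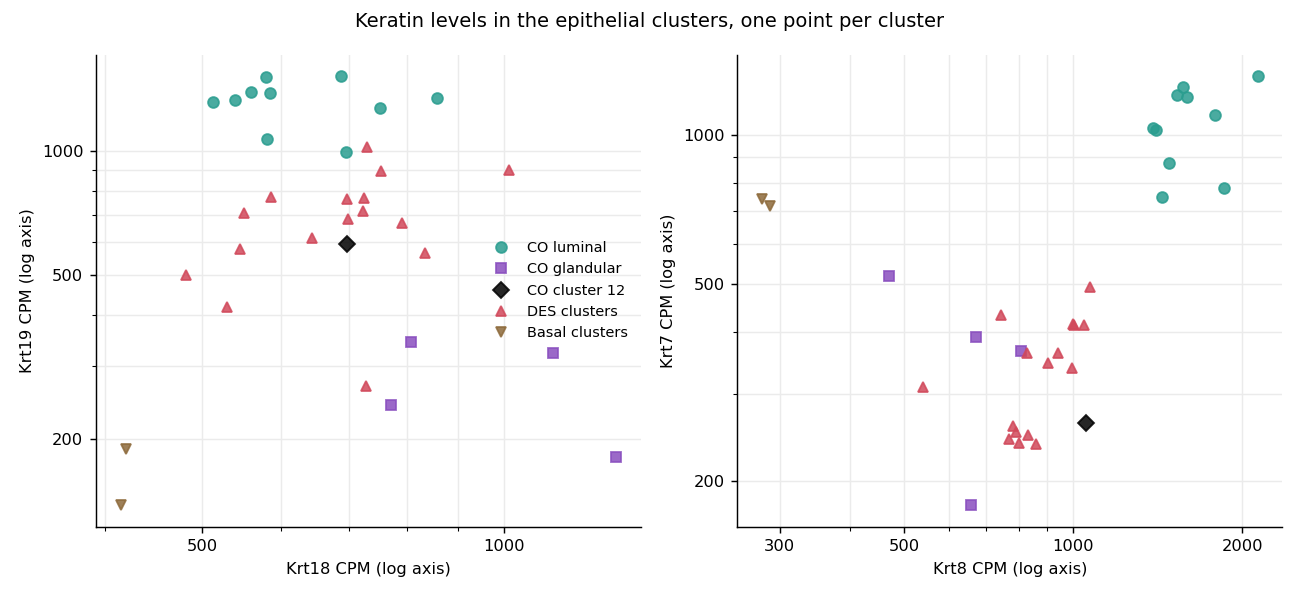
Krt19 against Krt18 (left) and Krt7 against Krt8 (right) in CPM on log axes, 1 point per epithelial cluster. CO luminal clusters lie above the glandular ones in Krt19 and Krt7, glandular clusters reach the highest Krt18 (1295 CPM), and DES clusters lie between the glandular and the luminal points in Krt19 apart from clusters 7 (268 CPM) and 3 (1023 CPM), which reach into them.

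Basal cells were taken by the study's rule, which asks for a count above 1 for Krt14 and for Trp63, a transcription factor of basal epithelium. The rule took 483 DES epithelial cells and 0 of 2583 CO epithelial cells, which allows a share of up to 0.116% in this library (a limit of 3 counts, for counting error alone). These cells held Krt7 at 697 CPM, Krt18 at 422 CPM, Krt8 at 310 CPM and Krt19 at 178 CPM. Against the other 4772 DES epithelial cells, Krt7 was 2.09 times higher (interval 2.04 to 2.14), and Krt18 was at 0.620 times, Krt8 at 0.360 times and Krt19 at 0.269 times. Among 3074 genes, 15.6% were at least 1.5 times higher, as was Krt7, and 15.2% at least 1.5 times lower, as were the other 3. The 4 simple keratins met in 7.45% of thinned basal cells, where Krt7 was found in 81.8%, Krt18 in 63.8%, Krt8 in 46.6% and Krt19 in 21.5%. They made up 15.9% of all keratin UMIs there, beside Krt14 at 3314 CPM, Krt15 at 2505 CPM, Krt5 at 1639 CPM and Krt17 at 865 CPM, keratins of stratified epithelium.

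Among all 50 keratin genes in the single-cell counts, 7 reached 50 CPM in CO epithelial cells and 8 in DES epithelial cells. The 4 simple keratins held 92.8% of keratin UMIs in CO epithelial cells and 75.9% in DES epithelial cells, and 97.8% and 95.8% in mesothelial cells. The other 7 genes past that level in either library moved both ways. Krt5, Krt14, Krt15 and Krt17 went from 0.305, 0.838, 1.05 and 6.24 CPM in CO to 178, 226, 174 and 62.0 CPM in DES epithelial cells, basal cells included. In DES clusters without basal cells, which were chosen by Krt14, they were at 75.9, 8.59, 9.55 and 2.80 CPM, so that Krt17 lay below its CO level there. Krt12, Krt84 and Krt87 went from 51.2, 122 and 58.5 CPM to 1.25, 41.9 and 3.98 CPM.

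Genes that work with keratins were read from a list of 16, in DES non-basal clusters over CO epithelial cells. At least 1.5 times higher were 4 (Ppl and Evpl, plakin linkers, at 1.55 and 1.89 times, Pkp1, a desmosome plaque protein, at 4.09 times, and Trp63 at 8.33 times, from 0.0761 to 0.634 CPM) and at least 1.5 times lower were 7. The 7 included Plec, which ties filaments to the cell base, at 0.609 times, Dsp, which ties them to desmosomes, at 0.648 times, and Klf5, an epithelial transcription factor, at 0.638 times. The median of the 16 was 0.797 times. The 4 higher genes were all below 50 CPM in both groups. Of the 6 partner genes with at least 50 CPM in either group, 0 were that much higher and 4 that much lower, with a median of 0.643 times, beside 380 higher and 630 lower of 3103 genes with at least 50 CPM, whose median was 0.982 times. Of 8 non-keratin epithelial genes 0 were higher and 1 was lower, the tight junction gene Cldn4 at 0.247 times, with a median of 0.824 times. In the same comparison Krt7 stood at 0.332, Krt19 at 0.539 and Krt8 at 0.560 times, below that median, and Krt18 at 0.990 times, above it.

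The genes whose levels ran most like each keratin were found by Pearson's r of log2(CPM + 1). Over 14 groups of library and cell type, and 6222 genes, they were led by Rbbp7 (0.956), then Bace2, for Krt7, Psmb5 (0.953) for Krt8, Mapk13 (0.976) and Klf5 (0.959) for Krt18, and Bace2 (0.960) and Smpd3 (0.958) for Krt19. The members themselves had r of 0.892 to 0.979 with each other. Within CO epithelium, over 15 clusters and 4312 genes, the leading genes were Fxyd4 (0.970) for Krt7, Car9 (0.966) for Krt8, Gadd45a (0.889), Smad4 (0.883) and Klf9 (0.861) for Krt18, and Tnfaip8 (0.984) among those of Krt19. Over 16 DES clusters they were Cblc (0.904) for Krt7, Plpp2 (0.895) for Krt8, Rnh1 (0.855) for Krt18 and Ptpn18 (0.850) for Krt19. Prdx5 was among the 5 most alike to Krt7 in both libraries, at 0.968 and 0.890. The points of each cluster set share 1 library, while the 14 groups come from both libraries and differ in depth. The leading genes were the highest of 3701 to 6222 genes over 14 to 16 points.

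In tissue sections the levels of the 4 keratins overlapped between DES and CO, and the 2 CO sections lay far apart. Krt7 stood at 1100 CPM (A) and 451 CPM (B) in CO, against 1053 CPM (A) and 1188 CPM (B) in DES. Krt19 stood at 1039 and 355 CPM in CO, against 1063 and 941 CPM in DES, with A given before B here and from here on. Both genes were low in CO B alone. Krt8 was at 948 and 500 CPM in CO, against 756 and 924 CPM in DES. Krt18 had the reverse order within CO, at 350 and 591 CPM, and was at 552 and 661 CPM in DES. Section CO B was thus lowest in Krt7, Krt8 and Krt19, and section CO A lowest in Krt18. In 0 of the 4 genes were the groups free of overlap, as they were in 61.6% of 14098 genes.

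**Figure D4:**
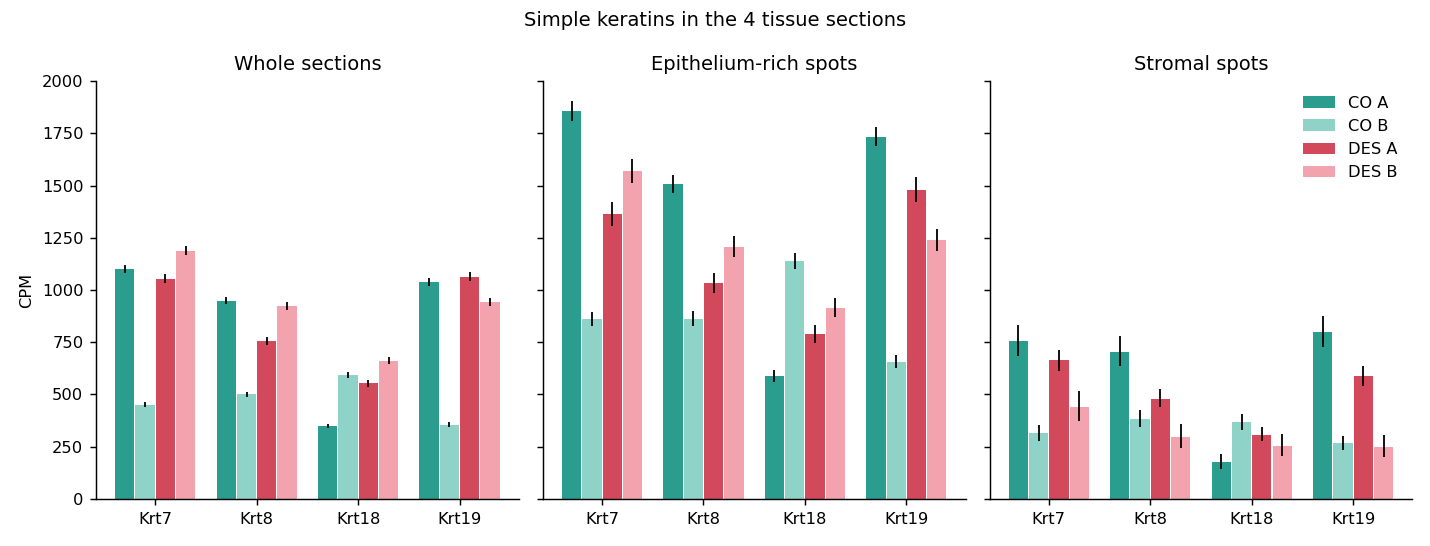
Level of each keratin in CPM (bars from 0, with exact Poisson 95% intervals for counting error) in each of the 4 sections over all spots, epithelium-rich spots and stromal spots. CO B has the lowest Krt7, Krt8 and Krt19 over all spots, and CO A the lowest Krt18 (350 CPM).

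Fitted with edgeR's quasi-likelihood test over all genes, the DES minus CO log2 differences of whole sections were 0.32 for Krt7 (SE 0.457, adjusted p = 0.732), 0.30 for Krt19 (SE 0.525, adjusted p = 0.785), 0.17 for Krt18 (SE 0.297, adjusted p = 0.788) and 0.00187 for Krt8 (SE 0.367, adjusted p = 0.998). The median of the 4 was 0.23, beside -0.00518 over all genes tested. The test called 0 of 4, where 5.3% of all genes tested were called. At an unadjusted p under 0.05 it was 0 of 4 as well, beside 3438 of 14098 genes. DESeq2, whose number of calls over all genes is given further on, also called 0 of 4. The 95% interval for Krt19 reached from -1.05 to 1.66 and that for Krt8 from -0.95 to 0.95. The differences turned on single CO sections: without CO A the difference was 1.13 for Krt7 and 1.31 for Krt19, and without CO B it was -0.20 and -0.29. In spots, fewer epithelial cells and less RNA per cell cannot be told apart.

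CO B stood apart from CO A in other genes too. By the study's account the tissue of CO B was folded to a large degree, and DES B was of limited use for finding clusters, and the part of the fold in the levels of CO B was not tested. Its 7 glandular markers summed to 742 CPM, with 0 of them at 0, where CO A had 187 CPM with 1 at 0 and the DES sections 233 and 143 CPM with 2 at 0 in each. The markers did not move together. Sult1d1 was at 8.80 and 73.7 CPM in CO, against 1.21 and 4.96 CPM in DES, while Foxa2 was at 4.48 and 3.44 CPM in CO, against 22.5 and 37.8 CPM in DES. In every section the sum was higher in stromal than in epithelium-rich spots, with 605 and 220 CPM in CO B, so it does not follow glands alone. Its 4 basal markers summed to 216 CPM, where CO A had 4.08 CPM and the DES sections 10330 and 6487 CPM. The stromal marker sum was 2467 and 2463 CPM in the CO sections and 1152 and 774 CPM in the DES sections, the muscle sum 13345 and 14168 CPM against 3077 and 3458 CPM, and the mesothelial sum 37.4 to 55.3 CPM in all 4. The part of these markers in the keratin levels was not tested.

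The balance of the keratins also differed within the CO group. Krt18 over Krt19 was 0.337 and 1.66 in CO, against 0.520 and 0.702 in DES. Type II over type I was 1.47 and 1.00 in CO, against 1.12 and 1.32 in DES. Per UMI of the 8 non-keratin epithelial genes, Krt18 gave 0.131 and 0.289 UMIs in CO, against 0.161 and 0.177 in DES. Krt7 gave 0.413 and 0.221 in CO, against 0.306 and 0.317 in DES. Krt19 gave 0.391 and 0.174 in CO, against 0.309 and 0.251 in DES. In these ratios both DES sections lay between the CO sections. Krt8 was the exception, at 0.356 and 0.245 in CO, against 0.220 and 0.247 in DES, so that DES A was below both CO sections.

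Where epithelial RNA was richest, in the 15% of spots of each section with the highest sum of the 8 non-keratin genes, the levels were higher than over all spots in every section, with the CO sections again far apart. Krt7 was at 1855 and 861 CPM in CO, against 1364 and 1570 CPM in DES. Krt8 was at 1505 and 863 CPM in CO, against 1032 and 1206 CPM in DES. Krt19 was at 1734 and 656 CPM in CO, against 1479 and 1239 CPM in DES. In these 3 genes CO A was the highest section and CO B the lowest. Krt18 was at 588 and 1139 CPM in CO, against 790 and 915 CPM in DES, again with the CO sections at both ends. Groups free of overlap were thus found in 0 of 4 keratins, and in 59.9% of genes. The log2 differences were -0.19 (SE 0.377, adjusted p = 0.812) for Krt7, -0.38 (SE 0.312, 0.516) for Krt8, -0.31 (SE 0.338, 0.631) for Krt18 and -0.12 (SE 0.444, 0.904) for Krt19 in edgeR's test, with a median of -0.25 beside -0.0138 over all genes, so 0 of 4 were called where 6.65% of 11183 genes were. At an unadjusted p under 0.05 the count was also 0, beside 2685 of 11183 genes. Leaving out either CO section changed the differences. Without CO A Krt18 was at -0.71 and Krt19 at 0.75, and without CO B Krt7 was at -0.65, Krt8 at -0.74 and Krt19 at -0.67.

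Stromal spots, taken as the cluster the study named stroma in each section, held keratins at lower levels. Krt7 stood at 756 and 314 CPM in CO and 663 and 439 CPM in DES, and Krt8 at 705 and 383 CPM in CO and 480 and 297 CPM in DES. Krt18 stood at 177 and 366 CPM in CO and 308 and 254 CPM in DES, and Krt19 at 799 and 268 CPM in CO and 586 and 248 CPM in DES. The groups overlapped in all 4 genes, where 42.9% of genes did not overlap. Differences were -0.00488 for Krt7, -0.53 for Krt8, -0.00915 for Krt18 and -0.41 for Krt19 on the log2 scale, with SEs of 0.428, 0.377, 0.383 and 0.535 and adjusted p of 0.999, 0.628, 0.997 and 0.838. Their median was -0.21, beside 0.00179 over all genes. edgeR called 0 of 4 there, where 1.47% of 8914 genes were called. At an unadjusted p under 0.05 the count was 0 as well, beside 1194 of 8914 genes. The 8 epithelial genes summed to 993 to 1872 CPM in these spots, which are wider than a cell. The make-up of the spots also differed. The stromal markers summed to 5517 and 4080 CPM in CO and 2922 and 1960 CPM in DES, the muscle markers to 888 and 700.2 CPM in CO and 2705 and 8369 CPM in DES, and the basal markers to 0 and 135 CPM in CO and 7719 and 2387 CPM in DES. The part of these other cells in the keratin levels of stromal spots was not tested.

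Spots were ranked by the 8 non-keratin genes and cut into 10 equal groups, of which the highest held more of every keratin than the lowest. In CO A Krt7 went from 55.9 CPM in the lowest group to 1936 CPM in the highest, and Krt18 from 8.15 to 582 CPM. In CO B Krt7 went from 51.6 to 842 CPM and Krt18 from 42.7 to 1124 CPM. The DES sections started higher, with Krt7 at 146 and 141 CPM and Krt18 at 53.8 and 78.2 CPM in the lowest groups. They ended at 1415 and 1642 CPM for Krt7 and at 787 and 975 CPM for Krt18. Epithelium-rich over all other spots, the ratios were 1.96 to 2.17 and 2.29 to 2.81 for the 4 keratins in the CO sections, against 1.39 to 1.58 and 1.41 to 1.52 in the DES sections. The 8 ranking genes themselves had ratios of 2.38 and 3.09 in CO and 1.86 and 1.79 in DES. Against all other spots both DES sections were thus flatter than both CO sections in each keratin and in the ranking genes, which was not tested. Against stromal spots alone this order did not hold, since DES B had the highest ratio of the 4 sections in each keratin, from 3.58 for Krt7 to 4.99 for Krt19, and in the ranking genes, at 5.86, where CO ratios of the keratins ran from 2.13 to 3.32.

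**Figure D5:**
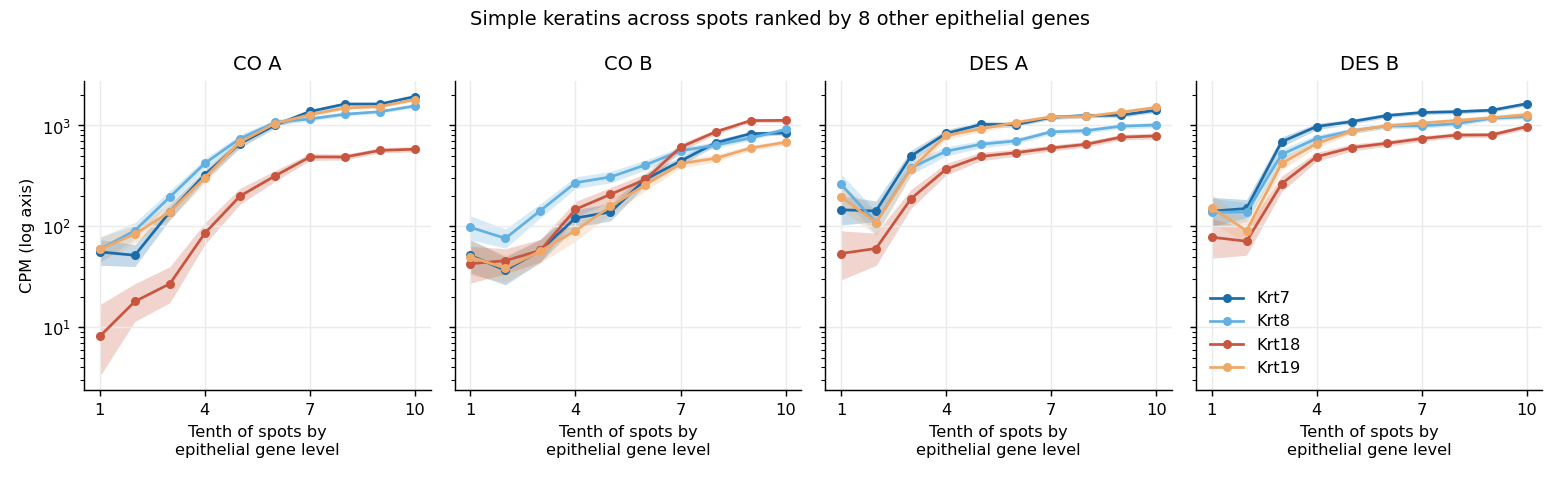
Level of each keratin in CPM (log axis) over 10 equal groups of the spots of each section, ranked by the summed CPM of 8 non-keratin epithelial genes, with bands for the exact Poisson 95% interval. All 4 keratins are higher at the right than at the left, and Krt18 is the lowest line in CO A (582 CPM in the highest group) and the highest line at the right of CO B (1124 CPM).

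Across the 10 spot clusters of each section the keratins followed the same genes. Between the log2 CPM of a keratin and that of the 8 genes, r was 0.919 to 0.989, a description of 10 points in 1 section. Each cluster counted alike, also DES A clusters 9 and 10 with 9 and 2 spots. The highest cluster exceeded the lowest by 13.6 to 38.7 times in the CO sections and by 8.22 to 19.2 times in the DES sections. In CO A cluster 1, with 240 spots, was highest for all 4. For Krt8 this was not resolved, with 1492 CPM (interval 1457 to 1527) there and 1472 CPM (1201 to 1785) in cluster 10 of CO A. In CO B cluster 2, with 339 spots, was highest for Krt8 (803 CPM), Krt18 (1133 CPM) and Krt19 (634 CPM). The intervals of CO B cluster 9 took in these levels for Krt8 (519 to 893 CPM) and Krt19 (445 to 795 CPM). In CO B cluster 2 Krt7 was at 831 CPM (interval 804 to 860). It was at 854 CPM (730 to 994) in the 17 spots of CO B cluster 10, so its highest cluster was not resolved either. In CO B cluster 10 Krt5 reached 3580 CPM and Krt18 463 CPM.

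Some of the other keratins that could be tested were called in the same sections. A gene could pass the filter on low counts through the DES sections alone, so the counts below describe the tested genes and not all 50 other keratins. In edgeR's test of whole sections, 8 of 25 other keratins tested rose in DES and 0 fell, where 2.67% of all genes tested rose. These calls were lost without either DES section, where few genes of any kind rose. They grew in number without either CO section, as rises over all genes did, and some other keratins then fell. Krt5 and Krt14 were among the 17 not called, at 0.800 and 93.4 CPM in CO against 5276 and 3562 CPM in DES for Krt5 (adjusted p = 0.142) and 1.68 and 59.7 CPM against 4175 and 2019 CPM for Krt14 (adjusted p = 0.104). With no filter on low counts, 8 of 38 rose, beside 442 of 19821 genes. Krt17 rose from 7.76 and 8.61 CPM in CO A and CO B to 86.3 and 83.5 CPM in DES A and DES B (log2 3.17, adjusted p = 0.0141). In epithelium-rich spots 10 of 19 rose and 0 fell, where 4.13% of all genes rose. Krt14 was among the 10, from 3.60 and 58.2 CPM to 3978 and 2046 CPM (log2 6.31, adjusted p = 0.0377). With no filter 11 of 34 rose and 1 fell, beside 570 of 17169 genes risen. Fewer keratins rose there without either DES section and more without either CO section, as over all genes. In stromal spots 5 of 8 rose and 0 fell, where 0.796% of all genes rose. These rises were lost without DES A, while rises remained without each of the other sections. With no filter 8 of 31 rose and 3 fell, beside 368 of 16195 genes risen. Of the 16 partner genes, 3 rose in whole sections (Plec, Evpl and Eppk1, all plakin family linkers) and 0 fell, with a median of 1.07. The partner gene calls were lost without either DES section and grew in number without either CO section, as rises over all genes did. With no filter 7 rose, beside 442 of 19821 genes. In epithelium-rich spots 4 rose (Plec, Evpl, Pkp1 and Trp63), where 4.13% of all genes did, and Pkp2, a desmosome plaque protein, fell by 1.29 on the log2 scale. Fewer partner genes rose in those spots without either DES section and more without either CO section, again as over all genes. Plec went from 131 and 115 CPM to 399 and 407 CPM in those spots (log2 1.41, adjusted p = 0.0193). Markers of other cells moved with these calls, the 4 basal markers from 6.87 and 245 CPM to 10687 and 6843 CPM and the 4 myeloid markers from 144 and 234 CPM to 1141 and 845 CPM in those spots. In single cells Plec was at 232 CPM in DES basal cells and 93.6 CPM in DES non-basal clusters. The part of basal and myeloid cells in the partner gene values was not tested. Of the 8 epithelial genes Cldn4 alone was called in whole sections, where it rose. It was also the one called, as risen, in epithelium-rich spots, but those spots were ranked by these same 8 genes. The call there thus draws on values that chose the spots. In single cells Cldn4 was lower, at 0.247 times in DES non-basal clusters over CO epithelial cells. It was at 259 CPM in DES basal cells and 50.2 CPM in DES non-basal clusters.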

How the data were processed

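Single-cell libraries (10x 3′ kit, version 3) were counted by the authors with Cell Ranger 3.0.1 against mm10, with doublets removed by scran, and Visium sections with Space Ranger 1.2.2. The deposited values are raw UMI counts per cell or spot, with the authors' cell type and cluster of each, and a deposited fraction per cell, the share of reads that repeat a UMI, which was not used. From these, counts were summed by cell group or section and scaled to CPM. Single-cell ratios carry exact conditional intervals, and shares exact Clopper-Pearson intervals, both at 95%. Thinning drew 3000 UMIs per cell and left out shallower cells. Sections were lettered B where the submitters' titles say so and A otherwise, which differs from the letters in the names of the deposited files. These letters decide which section each A and B value, fold and named stromal cluster belongs to. Sections were tested with edgeR 4.0.16 (R 4.3.3), using filterByExpr, TMM factors, the quasi-likelihood test and Benjamini-Hochberg adjustment over all genes at 0.05. DESeq2 1.42.0 was an alternative, as were other filters, spot choices, cell choices and left-out sections. The edgeR test was also run on simulated data, with planted changes larger than those of the 4 keratins in the sections. That run cannot tell whether differences of the size seen in these keratins would be found. Other statistics used Python 3.11.15 and scipy 1.17.1.

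The members and lists were chosen with earlier results of these data known. The genes named were the 4 members in every comparison, other keratins with at least 50 CPM in the epithelial cells of either library, 16 partner genes, 8 epithelial genes and genes out of the 5 most alike to each member. Names of other keratins in the sections, and of partner genes, were picked from those called. Labels of the authors left 20134 CO and 6611 DES cells without a type. They enter the comparisons only where cells were picked by a pair of marker genes in place of the type. Depth was 353460067 UMIs in the CO and 288919190 in the DES single-cell library. Intervals cover counting error only, and p-values the spread between 2 mice a group.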

Additional observations from a re-analysis of the deposited data

Results flagged for a closer look

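Cells without a cell type, which no comparison by cell type or cluster used, also carried the simple keratins. Krt18 stood at 499 CPM in the 6611 such DES cells and at 362 CPM in the 20134 such CO cells, above the 77.2 CPM of CO stromal cells and the 52.0 CPM of DES myeloid cells. It was singled out because it is a signal in cells outside those comparisons, higher in DES than in CO as a sum over cells. By the median cell the order was the reverse, at 0 CPM in DES and 201 CPM in CO, with the 95th percentile of cells at 1502 CPM in DES and 863 CPM in CO. The other 3 keratins had the opposite order in these cells, DES against CO, with Krt7 at 298 and 532 CPM, Krt8 at 566 and 759 CPM and Krt19 at 605 and 799.9 CPM. The median depth was 2178 UMIs in the DES and 4137.5 in the CO cells without a type, and the part of depth in this difference was not tested.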

How the results depend on the processing

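No alternative other than leaving out a section brought a keratin past the threshold in the sections: 0 of 64 such values passed it and 8 had the opposite sign. Of the 48 values with 1 section left out, those that passed it all lacked a CO section, in whole sections or epithelium-rich spots. Rises over all genes there also grew in number without either CO section and fell in number without either DES section. With 1 section left in a group, the lone sample is assumed to vary like the others. Over the left-out sections the log2 difference of whole sections ran from -0.20 to 1.13 for Krt7, -0.41 to 0.57 for Krt8, -0.14 to 0.56 for Krt18 and -0.29 to 1.31 for Krt19. In epithelium-rich spots it ran from -0.65 to 0.47, -0.74 to 0.0777, -0.71 to 0.22 and -0.67 to 0.75 in the same gene order, and in stromal spots from -0.50 to 0.72, -0.90 to -0.07, -0.47 to 0.63 and -1.05 to 0.54. The number of genes called ran from 3 to 2819 (747 with all sections), 58 to 2653 (744) and 40 to 357 (131). DESeq2 called 1791 genes in whole sections, and gave Krt8 -0.00406 there, as did its size factors within edgeR. In stromal spots 714 genes were called without a filter on low counts. Spots chosen there by a stromal gene score gave 81 genes, and 0.55 for Krt7, 0.53 for Krt18 and 0.0590 for Krt19. The number of other keratins risen, with a section left out as counted after seeing the data, ran from 0 to 16 in whole sections, 1 to 13 in epithelium-rich spots and 0 to 7 in stromal spots. Without CO B 5, 5 and 1 of them fell. The cause of these shifts was not tested.

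The letters A and B of the sections are shared by CO and DES and state no litter, day or batch. The deviations of CO A and DES A from their group means correlated at -0.0254 in whole sections, 0.0519 in epithelium-rich spots and 0.0898 in stromal spots. With 2 sections in a group, such a correlation cannot decide whether the letters pair the sections. A fit with the letter as a replicate block gave 527, 1502 and 453 genes called, beside 747, 744 and 131 without it. Among the keratins it turned the sign of Krt19 in epithelium-rich spots (0.0422), and of Krt7 (0.0945) and Krt18 (0.0932) in stromal spots, with none past the threshold.

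Of 62 alternative single-cell ratios, 3 fell on the other side of 1 and 21 stayed inside the counting interval of the reported value. The ratios of DES to CO epithelial cells, in the order Krt7, Krt8, Krt18 and Krt19, were 0.335, 0.557, 0.992 and 0.539 without basal cells, 0.406, 0.616, 1.11 and 0.575 in cells chosen by Epcam and Cdh1 (many without a cell type), and 0.360, 0.545, 0.985 and 0.524 without the 20 most abundant genes in the totals. Less the level in CO stromal and DES myeloid cells, an alternative chosen after seeing the data, they were 0.372, 0.561, 1.01 and 0.552. That alternative took off a different cell type in each library. As a mean over cells, Krt7 was 0.406, Krt8 0.569 and Krt19 0.581. Mesothelial ratios were 0.576, 0.573, 0.906 and 0.716 in cells chosen by Upk3b and Msln, and 0.762, 0.475, 0.586 and 0.841 less the same other-cell level, with 0.588 for Krt18 and 0.778 for Krt19 as a mean over cells. Luminal over glandular, Krt7 was 2.74 without the cycling clusters, and Krt8 2.50 and Krt19 4.74 as a mean over cells. Basal over other DES epithelial ratios were 1.97, 0.424, 0.653 and 0.326 with at least 1 UMI as the rule. In the study's integrated clusters 8 and 11, Krt7 was 2.23, Krt8 0.325 and Krt19 0.236. Krt8 over Krt18 alone was 2.26 in CO and 1.25 in DES. All 48 shares of cells with a UMI were higher at the alternative depths.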

Other observations

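Luminal and glandular cells of the CO library also differed in keratins of low level, named here after their values were seen. Krt17 was at 49.9 CPM in glandular and 0.732 CPM in luminal clusters, Krt23 at 46.3 and 0.410 CPM, and Krt25 at 31.6 and 1.95 CPM. Krt20, a keratin of gut lining, was at 1.49 CPM in glandular and 35.6 CPM in luminal clusters, and Krt12 at 8.38 and 57.5 CPM. In DES non-basal clusters these 5 genes were at 2.80 CPM (Krt17), 0.475 CPM (Krt23), 0.347 CPM (Krt25), 0.0244 CPM (Krt20) and 1.15 CPM (Krt12). No test was made, with 1 library per group.

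Spint2, a protease inhibitor among the 8 epithelial genes, was at 628 CPM in DES mesothelial and 618 CPM in DES epithelial cells, and at 398 CPM in CO mesothelial and 523 CPM in CO epithelial cells.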
